A study of Mus musculus with 8 samples.

Results

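Regulators of G protein signaling (RGS proteins) were examined as 10 genes, Rgs1, Rgs2, Rgs3, Rgs4, Rgs10, Rgs12, Rgs13, Rgs14, Rgs19 and Rgs22, taken by symbol from a count table of 35199 genes that lists 22 RGS genes in all. The table holds bulk RNA sequencing of sorted intestinal tuft cells, the rare chemosensory cells of the gut epithelium, from 8 mice with 1 library each. All 8 mice were Dclk1-DTR-ZSgreen BAC transgenics, in which regulatory sequence of Dclk1 drives both the diphtheria toxin receptor and the ZSgreen reporter, and live, EPC-high, ZSgreen-positive cells were collected. The scopolamine group (n = 4) received the nonselective muscarinic receptor antagonist at 0.5 mg per kg body weight per day from an osmotic pump for 7 days, and the sham group (n = 4) received sodium chloride in the same way. Pumps were implanted at 8 to 10 weeks of age, and the study used both sexes. Sorted cells numbered 3000 in scopolamine 1 and sham 1 and 4000 in the other libraries, and RNA input to amplification was 1000 pg except for sham 1 and sham 3, which were made from 200 pg with 15 rather than 10 cycles.

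A heterotrimeric G protein signals while its alpha subunit holds GTP, and RGS proteins speed the hydrolysis of that GTP, which shortens the signal. The R4 class (Rgs1, Rgs2, Rgs3, Rgs4 and Rgs13 here) consists of small proteins made mostly of the RGS domain, of which Rgs2 acts preferentially on alpha subunits of the Gq class. The R12 class (Rgs10, Rgs12 and Rgs14) and the RZ class (Rgs19) act on alpha subunits of the Gi family, and Rgs12 and Rgs14 carry further domains that bind inactive Gi alpha and Ras-family GTPases. Tuft cells share with taste cells a cascade of G protein, phospholipase C and the cation channel Trpm5, in which an RGS protein would set how long the receptor signal lasts.

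Among the 10 genes, Rgs13 and Rgs2 stood above the others in every library in CPM, and they are neighbours on chromosome 1. The starts of both genes are shown because both were high in all 8 libraries, although the sequences around their starts differ strongly in composition. Whether the same cells express both was not measured. The start of Rgs21, a neighbour with no count, is shown beside them. Each sequence is from RefSeq on GRCm38.p6, minus strand, and runs 5′ to 3′ from 250 bases before to 50 bases after the annotated start. Capitals mark CpG dinucleotides.
Rgs13, chr1:144177323-144177622: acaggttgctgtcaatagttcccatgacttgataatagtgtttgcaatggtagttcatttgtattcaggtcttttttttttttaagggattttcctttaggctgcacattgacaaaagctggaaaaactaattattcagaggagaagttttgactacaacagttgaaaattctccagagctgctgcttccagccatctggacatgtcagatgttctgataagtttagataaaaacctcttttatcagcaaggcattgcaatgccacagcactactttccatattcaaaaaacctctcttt
Rgs2, chr1:144004100-144004399: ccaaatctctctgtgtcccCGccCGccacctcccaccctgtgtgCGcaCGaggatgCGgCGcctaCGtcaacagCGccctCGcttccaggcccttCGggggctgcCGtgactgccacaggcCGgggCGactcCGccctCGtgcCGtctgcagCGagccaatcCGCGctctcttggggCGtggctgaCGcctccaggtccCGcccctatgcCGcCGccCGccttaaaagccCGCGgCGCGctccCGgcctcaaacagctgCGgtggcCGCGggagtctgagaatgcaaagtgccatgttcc
Rgs21, chr1:144567618-144567917: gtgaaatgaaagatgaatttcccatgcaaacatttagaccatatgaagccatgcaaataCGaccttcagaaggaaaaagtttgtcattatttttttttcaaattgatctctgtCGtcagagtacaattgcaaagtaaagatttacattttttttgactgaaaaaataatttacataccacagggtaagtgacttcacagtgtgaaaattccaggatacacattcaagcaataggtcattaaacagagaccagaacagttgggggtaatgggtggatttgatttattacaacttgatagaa
The Rgs13 sequence had no CpG and 36.7% GC, the Rgs2 sequence had 33 CpG and 70% GC, and the Rgs21 sequence had 2 CpG and 33.3% GC. Over the 32851 sequences of this length in the RefSeq set the medians were 7 CpG and 52.7% GC. No CpG at all was found in 5.43% of them, and 8.56% held at least as many as Rgs2. Both strands were searched for 3 motifs. The letters TGACG, the core of a cAMP response element, lay at -185 and -67 of Rgs2 and at -137 of Rgs21 and in 20.8% of all sequences. The octamer ATGCAAAT, bound by POU factors, was found at -200 of Rgs21 and in 1.74% of all sequences. The TATA motif TATAAA was in none of these 3 and in 13.6% of all. These are matches of letters only, and binding was not measured here.

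Rgs13 was the most abundant RGS gene. Its level was 1302, 561, 1348 and 626 CPM (the count of a gene relative to the TMM-scaled total of its library) in scopolamine 1 to 4, and 1184, 1336, 1500 and 1039 CPM in sham 1 to 4. Scopolamine 2 and scopolamine 4 lay below all other libraries, whereas scopolamine 1 and scopolamine 3 lay within the sham range, so that the groups overlapped. Scopolamine libraries averaged 959 ± 424 CPM and sham libraries 1265 ± 198 CPM (SD, n = 4 each). The log2 fold change was -0.40 (standard error 0.29, edgeR adjusted p = 0.860), and its 95% interval, as a change from the sham level, ran from -51.1% to 17.6%. The coefficient of variation was 44.2% with scopolamine and 15.7% in sham. Across all genes listed with a count, Rgs13 lay at the 99.6 percentile of mean CPM.

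Rgs2 was measured at 694, 422, 934 and 658 CPM in scopolamine 1 to 4 and at 742, 594, 1080.0 and 750 CPM in sham 1 to 4. The lowest library was again scopolamine 2, but only that library lay below the sham range. Group averages of 677 ± 209 and 792 ± 205 CPM (SD, n = 4 each) gave a log2 fold change of -0.23 (standard error 0.25, edgeR adjusted p = 0.909), with an interval from -41.4% to 24.8%. Without scopolamine 3 the estimate was -0.42, and without sham 3 it was -0.04. The ratio of Rgs13 to Rgs2 in CPM averaged 1.40 ± 0.380 and 1.65 ± 0.408 (SD, n = 4 each), and the exact permutation test gave p = 0.371 (two-sided). Scopolamine 4, at 0.951, was the only library with more Rgs2 than Rgs13 on this scale.

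Rgs3, the remaining R4 gene with substantial counts, had 40.98, 45.3, 75.1 and 27.3 CPM in scopolamine 1 to 4 and 45.4, 60.7, 51.3 and 59.0 CPM in sham 1 to 4. Scopolamine 3 was the highest library of all and scopolamine 4 the lowest, and the sham libraries lay between them. The means of 47.2 ± 20.1 and 54.1 ± 7.11 CPM (SD, n = 4 each) gave a log2 fold change of -0.20 (standard error 0.29, edgeR adjusted p = 0.934). Without scopolamine 3, the groups no longer overlapped, although scopolamine 2 and sham 1 then lay next to each other at 45.3 and 45.4 CPM. Without that library, 6.61% of all 12849 genes tested did not overlap. A gene on the opposite strand, Gm11209, overlaps Rgs3, and whether strand was used in counting is not given.

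**Figure D1:**
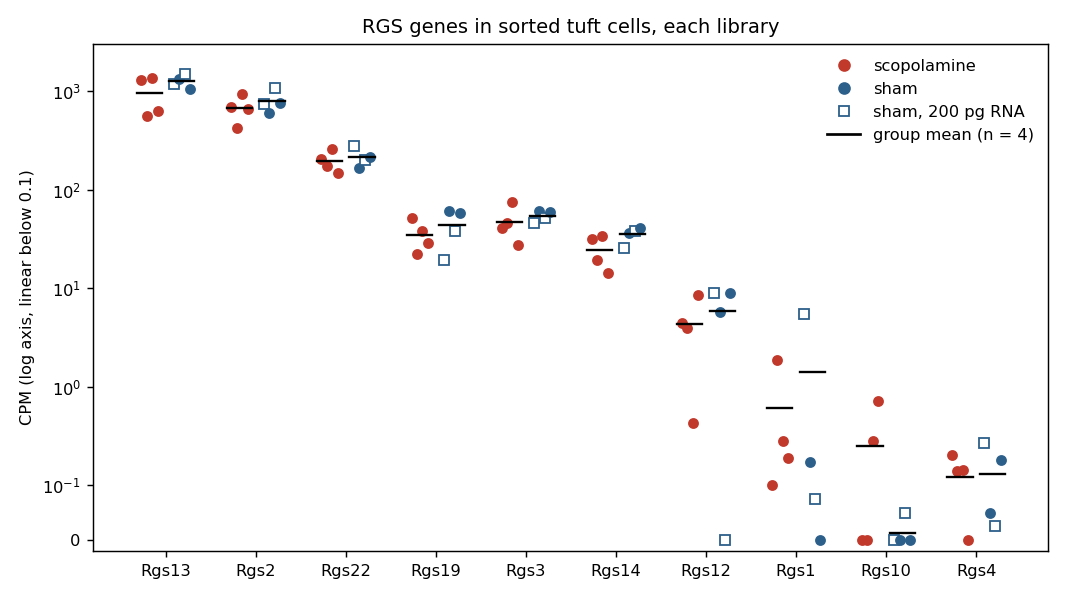
CPM of each of the 10 RGS genes (vertical log axis, linear below 0.1) in each library, with scopolamine in red and sham in blue, open squares for the sham libraries made from 200 pg and a black line for each group mean. Rgs13 and Rgs2 lie between 422 and 1500 CPM in all 8 libraries, and in no gene past the expression filter do the groups separate.

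The R12 class was represented mainly by Rgs14. It had 31.5, 19.4, 33.4 and 14.1 CPM in scopolamine 1 to 4, and 25.5, 36.1, 38.0 and 41.03 CPM in sham 1 to 4. Sham 2, sham 3 and sham 4 lay above every scopolamine library, and sham 1 lay among them. Rgs14 showed the largest log2 fold change among the 7 of the 10 genes that passed the filter, at -0.51 (standard error 0.32, edgeR adjusted p = 0.83), with means of 24.6 ± 9.35 and 35.2 ± 6.75 CPM (SD, n = 4 each) and an interval from -56.9% to 13.6%. The exact permutation test gave p = 0.171 (two-sided, 70 assignments), where the smallest possible value is 0.0286. Leaving out 1 library at a time, the log2 fold change stayed between -0.70 and -0.33, and without sham 1 the groups did not overlap, which then held for 10.2% of all genes tested.

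Rgs12 varied between libraries far more than Rgs14. It had 89, 84, 6 and 178 counts in scopolamine 1 to 4 and 234, 233, 0 and 297 counts in sham 1 to 4, or 4.46, 3.93, 0.423 and 8.41 CPM and 8.86, 5.66, 0 and 8.86 CPM. Scopolamine 3 and sham 3 thus stood apart in opposite groups, and sham 3 is a library made from 200 pg in which 3 counts correspond to 0.0743 CPM. The log2 fold change was -0.44 with a standard error of 1.29 (edgeR adjusted p = 0.979), which gives an interval that no statement on direction can rest on. Rgs12 shares its locus with Mir3097 and the antisense gene Gm43791.

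Rgs10 was nearly undetected. Scopolamine 1 to 4 had 0, 0, 4 and 15 counts and sham 1 to 4 had 0, 0, 2 and 0 counts. Only scopolamine 3 and scopolamine 4 exceeded the 3 counts taken as the floor. The summed 19 against 2 counts correspond to a ratio of 17.5 after scaling to library size, with an exact interval of 4.23 to 155 that covers counting error only, and a single library gave 15 of the 19 counts. Over libraries the exact permutation test gave p = 0.429 (two-sided). The same library, scopolamine 4, was the only one with any count of the mast cell protease gene Cpa3, at 1.47 CPM, and held the highest levels of the mast cell proteases Mcpt1 and Mcpt2, at 14.2 and 6.29 CPM, which were at 0 in all 4 sham libraries. The whole list of 7 mast cell markers, however, had its lowest sum there, at 68.4 CPM against 79.5 to 107 CPM in the other libraries, most of it from Kit, which was at 44.6 CPM in scopolamine 4. Without Kit, the sum was 23.9 CPM in scopolamine 4 and at most 1.63 CPM elsewhere. These genes were singled out after their values were seen, and the part of other cells in the Rgs10 counts was not tested.

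Rgs19, of the RZ class, had 51.2, 22.3, 37.9 and 28.5 CPM in scopolamine 1 to 4 and 19.3, 60.9, 38.2 and 57.8 CPM in sham 1 to 4. The lowest library was sham 1, the other low-input library sham 3 was close to scopolamine 3, and the remaining sham libraries were the highest of all. Means were 35.0 ± 12.6 and 44.1 ± 19.3 CPM (SD, n = 4 each), and the log2 fold change was -0.33 (standard error 0.38, edgeR adjusted p = 0.912). Without both low-input sham libraries, Rgs14 and Rgs19 were lower in every scopolamine library than in every sham library, with log2 fold changes of -0.67 (edgeR adjusted p = 0.666) and -0.79 (edgeR adjusted p = 0.568). With 4 libraries against 2, however, 18.3% of the 12849 genes tested did not overlap either.

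The mouse IDs begin with the letter M in scopolamine 1 to 3 and sham 1 and with N in scopolamine 4 and sham 2 to 4, and what the letter stands for is not explained. Under M, Rgs14 was at 25.5 CPM in the single sham library, within the 19.4 to 33.4 CPM of the scopolamine libraries. Under N, the single scopolamine library had 14.1 CPM, below the 36.1 to 41.03 CPM of the sham libraries. Rgs19 differed in opposite directions under the letters, with 19.3 CPM in sham below the 22.3 to 51.2 CPM of scopolamine under M, and 28.5 CPM with scopolamine below the 38.2 to 60.9 CPM of sham under N. Each letter sets 3 libraries of one group against 1 of the other, and the letters were therefore compared in a single fit with the letter as a covariate. The log2 fold change in that fit was 0.03 for Rgs19 (edgeR adjusted p = 0.997), -0.65 for Rgs14 (edgeR adjusted p = 0.868) and -0.60 for Rgs13 (edgeR adjusted p = 0.868).

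Rgs22, a large protein with several RGS domains that is best known from testis, was the third most abundant of the 10. It had 205, 174, 257 and 146 CPM in scopolamine 1 to 4 and 274, 165, 199 and 216 CPM in sham 1 to 4. The ranges of the groups overlapped widely, and the means of 195 ± 47.3 and 213 ± 46.0 CPM (SD, n = 4 each) differed by a log2 fold change of -0.13 (standard error 0.21, edgeR adjusted p = 0.949). The interval from -33.6% to 26.5% was the narrowest among the RGS genes tested. The gene overlaps Gm25372 on the opposite strand and the pseudogene Gm18889.

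The comparison asked whether muscarinic blockade shifted RGS transcripts in tuft cells. Of the 10 genes, 7 passed the expression filter (Rgs2, Rgs3, Rgs12, Rgs13, Rgs14, Rgs19 and Rgs22), and none of the 7 was called by edgeR at an adjusted p under 0.1, against 0% of the 12849 genes tested. None had an unadjusted p under 0.05, a level reached by 5.99% of all genes tested, with Rgs14 the nearest at 0.133. DESeq2 called none of the 7 either, against 1.31% of 14462 genes, and no group of 4 was free of overlap with the other, against 3.88% of the genes tested. All 7 estimates were below 0, with a median log2 fold change of -0.33, whereas 6544 of the 12849 genes were lower and 6305 higher, with a median of -0.01. The median size of the log2 fold change over all genes, regardless of sign, was 0.31. The sign did not hold for all 7, since Rgs2, Rgs12, Rgs19 and Rgs22 each had an estimate above 0 under at least 1 alternative, whereas Rgs3, Rgs13 and Rgs14 had none. The signs of the 7 genes come from the same 8 libraries, and scopolamine 2 or scopolamine 4 was the lowest scopolamine library in 6 of them.

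**Figure D2:**
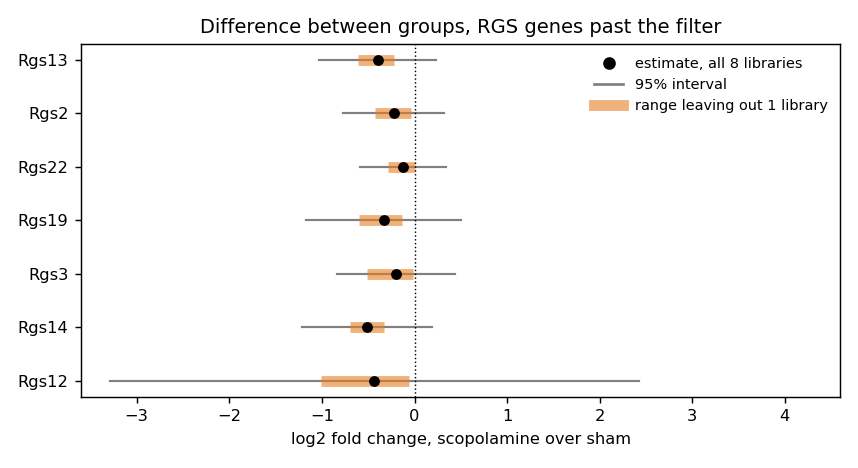
Log2 fold change of scopolamine over sham (horizontal axis) for the 7 RGS genes past the expression filter, with the estimate from all 8 libraries as a point, its 95% interval in grey and the range of estimates after leaving out 1 library at a time in orange. All 7 points lie below 0 and all 7 intervals include 0, with Rgs14 at -0.51 and Rgs22 at -0.13.

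In these bulk samples, fewer tuft cells and less RNA per cell cannot be told apart. The 22 tuft markers summed to 44057, 36099, 55844 and 33818 CPM in scopolamine 1 to 4 and to between 40805 and 47981 CPM in sham, and the libraries lowest in Rgs13, scopolamine 2 and scopolamine 4, were also lowest in this sum. Per 1000 counts of tuft markers, Rgs13 was at 29.5, 15.5, 24.1 and 18.5 in scopolamine 1 to 4 and at 26.0, 29.7, 31.3 and 25.5 in sham 1 to 4, so that both libraries remained the lowest (exact permutation test, two-sided, p = 0.114). Rgs14 on this scale averaged 0.567 ± 0.124 and 0.790 ± 0.182 (SD, n = 4 each), with p = 0.0857 in the exact permutation test (two-sided). The same exact permutation test gave p = 0.571 for Rgs2, 0.943 for Rgs22, 0.714 for Rgs19 and 0.429 for Rgs3, and these 6 values are not adjusted for their number.

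Rgs1, the lymphocyte member of the R4 class, was present in substance in only a pair of libraries. The counts were 2, 40, 4 and 4 in scopolamine 1 to 4 and 144, 7, 3 and 0 in sham 1 to 4, which correspond to 0.1002, 1.87, 0.282 and 0.189 CPM and to 5.45, 0.170, 0.0743 and 0 CPM. Scopolamine 2 and sham 1 stood above the rest of their groups. The same libraries held the highest summed level of T lymphocyte markers. Cd3e, a chain of the T cell receptor complex, was at 5.46, 7.72, 0.988 and 0.0945 CPM in scopolamine 1 to 4 and at 9.24, 0.0729, 0.173 and 0 CPM in sham 1 to 4. Gzma, a granzyme of cytotoxic lymphocytes, was at 16.1, 49.2, 11.8 and 2.88 CPM and at 66.9, 0.0243, 0.619 and 1.43 CPM. The 19 T lymphocyte markers other than Ptprc, which is also expressed in tuft cells, summed to 61.6, 151, 31.5 and 33.0 CPM in scopolamine and to 169, 7.56, 13.7 and 6.71 CPM in sham, and their part in the Rgs1 counts was not tested. Not every marker had this order. Cd8a, a coreceptor of cytotoxic T cells, was highest in sham 1 at 14.6 CPM, but next highest in scopolamine 4 at 4.02 CPM, above the 3.09 CPM of scopolamine 2. Rgs1 did not pass the filter. The pooled counts gave a ratio of scopolamine to sham of 0.599 with a counting interval of 0.426 to 0.83, but 144 of the 154 sham counts came from sham 1, and the fitted log2 fold change moved from -1.22 to 2.81 without it.

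**Figure D3:**
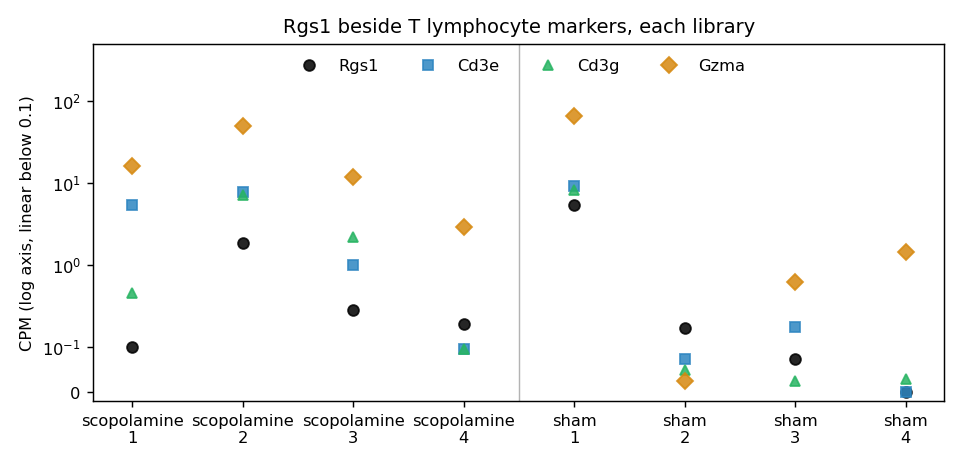
CPM (vertical log axis, linear below 0.1) of Rgs1 and of the T lymphocyte markers Cd3e, Cd3g and Gzma in each of the 8 libraries. All 4 genes are highest in sham 1, where Rgs1 is at 5.45 CPM, and next highest in scopolamine 2, where it is at 1.87 CPM.

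Rgs4, known from brain and heart, had 4, 3, 2 and 0 counts in scopolamine 1 to 4 and 7, 2, 1 and 6 counts in sham 1 to 4. The highest library reached 0.265 CPM, and only 3 of 8 libraries exceeded 3 counts. The pooled ratio of 1.04 had a counting interval of 0.404 to 2.49, so that no difference was detectable at this depth.

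To compare genes with each other, CPM was divided by the length of the principal transcript in kilobases (RPKM). On this scale Rgs13 was at 720 (lowest to highest library 363 to 971) and Rgs2 at 243 (140 to 357), and their ranges did not overlap. With the median coding transcript as length, the ranges overlapped (367 to 982 for Rgs13 and 234 to 599 for Rgs2), although Rgs2 was below Rgs13 in all 8 libraries. With the principal transcript, Rgs22 followed at 51.0 (36.5 to 68.5) and was below Rgs2 in every library, whereas its range overlapped that of Rgs19 at 26.1 (12.8 to 40.3). Rgs3 at 13.02 (7.01 to 19.3) and Rgs14 at 12.7 (5.999 to 17.4) could not be ordered, and with the longest transcript as length Rgs14 ranked above Rgs3. Rgs12 was at 0.928 (0 to 1.62), below every library of Rgs14, and overlapped with Rgs1 at 0.265, Rgs10 at 0.148 and Rgs4 at 0.0425. Rgs13 alone held between 57.9% and 73.1% of the summed RPKM of all 22 RGS genes, and Rgs13 with Rgs2 between 85.8% and 92.6%. These shares depend on the length used, and with the median transcript they were 40.5% to 57.8% and 68.8% to 83.0%, with Rgs22 then at 13.3% to 25.4%. The summed RPKM itself was lowest in scopolamine 2, at 586, and scopolamine 4, at 700, and ran from 1051 to 1434 in the other libraries.

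**Figure D4:**
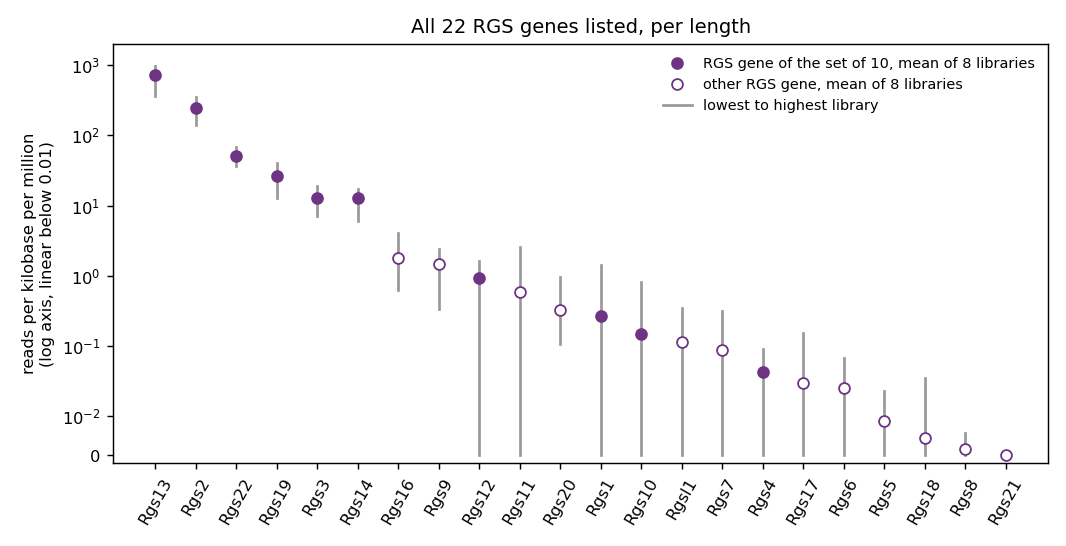
RPKM (CPM per kilobase of principal transcript, vertical log axis, linear below 0.01) of the 22 RGS genes listed, as the mean of 8 libraries (points, filled for the 10 genes described and open for the others) with a line from the lowest to the highest library. Rgs13 at 720 and Rgs2 at 243 lead, and Rgs21 has no count.

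The other 12 RGS genes were all low. Rgs16, an R4 gene, led at 1.81 RPKM (0.621 to 4.04), followed by Rgs9, the R7 gene known from rod and cone cells, at 1.48 RPKM (0.343 to 2.43), and each was below every library of Rgs14 and Rgs3. The filter was passed by 5 of the 12 (Rgs16, Rgs20, Rgs9, Rgs11 and Rgsl1), of which 2 had estimates above and 3 below 0, with none called by edgeR. R7 proteins need the beta subunit Gnb5 for their stability, and Gnb5 averaged 3.70 ± 2.83 and 5.93 ± 1.55 CPM (SD, n = 4 each).

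On chromosome 1, the stretch from Rgs2 to Rgs18 spans 776 kb and holds 5 protein-coding genes, all of them RGS genes on the minus strand. Rgs2 (143999338 to 144004161) lies 134 kb from Rgs13 (144138654 to 144177372), and Rgs1 (144242296 to 144249242) lies 64.9 kb beyond Rgs13. Mean CPM over the 8 libraries was 734 for Rgs2 and 1112 for Rgs13 but 1.02 for Rgs1. Rgs21, an RGS gene known from taste cells, had 0 counts in all 8 libraries, and Rgs18, known from platelets, had 1. The drop from Rgs13 to its neighbour Rgs1 held in every library, including sham 1.

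**Figure D5:**
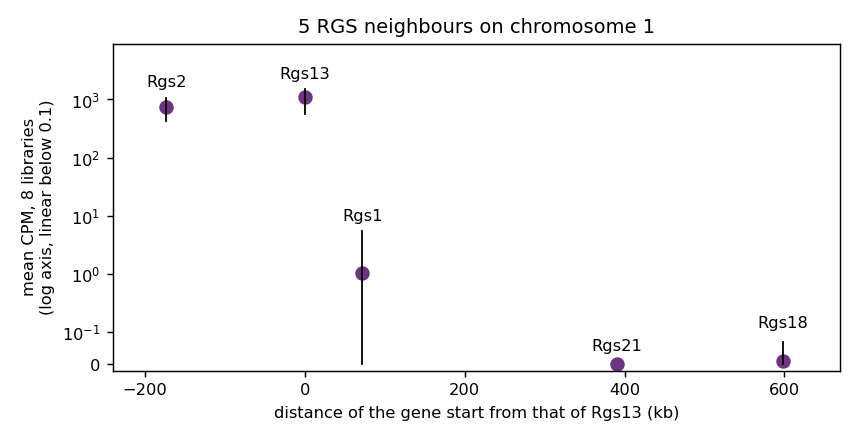
Mean CPM over 8 libraries (vertical log axis, linear below 0.1, with lines from the lowest to the highest library) against the distance of each gene's start from that of Rgs13 in kb, for the 5 RGS genes that lie together on chromosome 1. Rgs2 at 734 and Rgs13 at 1112 CPM adjoin Rgs1 at 1.02 CPM.

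The other Rgs genes of the 10 lie elsewhere in GRCm38. Rgs4 is on chromosome 1 from 169741477 to 169747642, Rgs3 on chromosome 4 from 62559847 to 62704001, Rgs12 on chromosome 5 from 34949445 to 35039644 and Rgs10 on chromosome 7 from 128373621 to 128418758. Rgs14 is on chromosome 13 from 55369732 to 55384687, Rgs19 on chromosome 2 from 181688419 to 181693977 and Rgs22 on chromosome 15 from 36009479 to 36140400.

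The G protein subunits on which RGS proteins act were read from a list of 77 listed pathway genes, of which 56 passed the filter, 24 with estimates above and 32 below 0. None was called by edgeR, and 2 had an unadjusted p under 0.05 (the gamma subunits Gng4 and Gng5), where 5.99% of all genes tested did. These 2 differed in direction, with log2 fold changes of 3.51 for Gng4 and -0.37 for Gng5. Gng4 had 36, 22, 4 and 101 counts in scopolamine 1 to 4 and 0, 0, 1 and 22 in sham 1 to 4. Among Gi-family alpha subunits, Gnai2 was highest, at 1338 ± 338 CPM with scopolamine and 1517 ± 121 CPM in sham (SD, n = 4 each), with scopolamine 4 again the lowest at 968 CPM. Gustducin (Gnat3), the alpha subunit of taste transduction, was at 71.9 ± 40.3 and 76.0 ± 42.1 CPM (SD, n = 4 each). Of the 4 Gq-class subunits, preferred partners of Rgs2, Gnaq was at 16.1 ± 7.25 and 16.1 ± 4.89 CPM and Gna11 at 337 ± 140 and 207 ± 77.8 CPM (SD, n = 4 each), with edgeR adjusted p = 0.998 and 0.812. Gna14 was at 2.30 ± 2.82 and 1.19 ± 0.870 CPM (SD, n = 4 each), and these 3 had estimates above 0. Gna15, not past the filter, was at 0.568 ± 0.605 and 0.0502 ± 0.0280 CPM (SD, n = 4 each), with at most 31 counts in a library. Its groups did not overlap, which held for 3.88% of the genes tested. Gnai3 averaged 62.5 ± 10.1 and 59.1 ± 21.7 CPM, and the Gs subunit Gnas 794 ± 109.6 and 888 ± 67.3 CPM (SD, n = 4 each). The beta subunits Gnb1 and Gnb2 were at 302 ± 13.3 and 293 ± 36.8 CPM and at 291 ± 42.7 and 307 ± 112 CPM (SD, n = 4 each). Of the gamma subunits, Gng13, the partner of gustducin, was at 195 ± 90.1 and 289 ± 75.7 CPM (SD, n = 4 each, edgeR adjusted p = 0.815), and Gng5 at 531 ± 54.4 and 687 ± 142 CPM (SD, n = 4 each, edgeR adjusted p = 0.812). Of the muscarinic receptors that scopolamine blocks, Chrm2, Chrm4 and Chrm5 had no count, Chrm3 was at 0.350 ± 0.204 and 0.891 ± 0.493 CPM and Chrm1 at 0.739 ± 1.08 and 1.61 ± 3.01 CPM (SD, n = 4 each), the latter resting on 6.12 CPM in sham 3.

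Library totals ran from 14343362 to 20857433 counts with scopolamine and from 25769940 to 41428916 in sham, every sham library being the deeper, so that depth and treatment cannot be told apart. Markers of tuft cells were high in every library, with Krt18 in the lead and with Dclk1 (3432 to 5725 CPM), Trpm5 (966 to 1737 CPM) and Pou2f3 (196 to 609 CPM) among them, and all 22 tuft markers passed the filter, 17 with estimates below and 5 above 0. Markers of other epithelial cells were present in every library and had estimates above 0 for 14 of 14 enterocyte genes, 13 of 13 goblet and Paneth genes and 14 of 16 enteroendocrine genes, none called by edgeR. Their summed levels were 3423 to 7513 CPM with scopolamine and 2624 to 6861 CPM in sham for enterocytes (Fabp1 and Apoa1 among them), 731 to 3600 and 372 to 1446 CPM for goblet and Paneth cells (Tff3, Zg16 and Fcgbp), and 443 to 1135 and 186 to 1149 CPM for enteroendocrine cells (Sct, Chgb and Cck). The highest sham sums came from the low-input libraries, sham 1 for enterocytes and sham 3 for enteroendocrine cells, and the other 3 sham libraries reached 2793 and 311 CPM, below every scopolamine library. An unadjusted p under 0.05, reached by 5.99% of all genes tested, was found for 5 of the 14 enterocyte genes. It was also found for 3 of the 13 goblet and Paneth genes and 2 of the 16 enteroendocrine genes. The part of these cells in the lower RGS estimates was not tested. Markers of B lymphocytes and plasma cells, led by Cd79b, summed to 4.02 to 11.8 CPM with scopolamine and 13.5 to 26.9 CPM in sham. These sums did not overlap, and the 4 of 7 markers that passed the filter had estimates below 0 (median -1.37 on the log2 scale). B lymphocytes are known for Rgs13, which also had an estimate below 0, and their part in it was not tested. The mast cell receptor gene Fcer1a was at 0 in all 8 libraries. The mast cell list, led by Kit, summed to 68.4 to 107 CPM. Without Kit it summed to 23.9 CPM in scopolamine 4 and to at most 1.63 CPM elsewhere. Macrophage and dendritic cell markers (Lyz2, Cd14 and Itgam in the lead) summed to 19.2 to 35.2 CPM with scopolamine and 15.2 to 17.8 CPM in sham, without overlap. The 3 of 10 that passed the filter had estimates above 0. Of single genes tested, 3.88% did not overlap, and no such share was taken for sums of markers. Sums for endothelial, pericyte and fibroblast cells (Pecam1, Pdgfrb and Col1a1) were 11.5 to 20.1 and 15.3 to 26.8 CPM. Immediate early and dissociation-induced genes (Jund, Jun and Junb) summed to 1479 to 2449 CPM with scopolamine and 1295 to 1809 CPM in sham, and 12 of 13 had estimates above 0 (median of the 13 genes 0.37 on the log2 scale), 2 of them at an unadjusted p under 0.05. None of these genes was called by edgeR, and their part in the RGS estimates was not tested.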

How the data were processed

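Bulk RNA sequencing of sorted tuft cells from 4 scopolamine and 4 sham mice was analysed. The authors converted reads with bcl2fastq 2.20, pseudoaligned them to the GRCm38 transcriptome with kallisto 0.44.0 and summed them per gene with tximport, and deposited the estimated counts without normalization, as whole numbers. The annotation release and use of strand are not given in the sources used here. Treatment, cell number and mouse ID come from the labels, and RNA input and amplification cycles from the study's Source Data. Replicates were numbered 1 to 4 within each group in accession order.

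Counts were tested with edgeR 4.0.16 in R 4.3.3 (TMM, filterByExpr, quasi-likelihood test, Benjamini-Hochberg adjusted p under 0.1) over all 12849 genes past the filter. The standard error is the log2 fold change over the root of F, and 95% intervals built from it are approximate. Genes not past the filter take their estimate from the same fit without a filter. As alternatives, the test was replaced by DESeq2 1.42.0 or limma-voom (limma 3.58.1), the scaling by DESeq2's size factors or library size alone, and the filter by none or by a minimum of 10 counts in all libraries. The threshold was lowered to 0.05, the low-input sham libraries or each single library in turn were left out, and the number of cycles or the letter of the mouse ID was added as a covariate. Chosen after the counts were seen were the transcript lengths, the fit without libraries that have under 10 counts of Rgs12, the shares of all genes without overlap when single libraries were left out, and the scaling to tuft markers. Single values were compared by exact permutation over 70 assignments on log2(CPM + 0.5), and ratios on their log2. A total of 3 counts, the floor, correspond to 0.0729 to 0.212 CPM, and counting intervals cover counting error only. Gene positions and principal transcripts are from GENCODE M21 on GRCm38. Promoters are from RefSeq, in which 7 of the 10 genes matched. Scripts were tested on simulated data.

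The 10 genes and all lists were chosen with earlier results of these data known. All 10 genes are named with their values. Of each pathway or marker list, called genes or else the most abundant were named, with Gnat3, Gnai2, Gnaq, Dclk1, Trpm5 and Pou2f3 in any case. Rgs9, Rgs16, Gnb5, Gna11, Gna15, Gng4, Gng5, Gng13, Cd3e, Cd3g, Cd8a, Cpa3, Mcpt1, Mcpt2 and the muscarinic receptors were named for their role or after their values were seen. Some genes that the rule would name are not reported here.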

Additional observations from a re-analysis of the deposited data

Results flagged for a closer look

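Rgs1 in scopolamine 2 was at 1.87 CPM, and its gap to the next library took up 0.897 of the range of the 4 scopolamine libraries, above the 95% critical value of Dixon's test. Rgs1 in sham 1 was at 5.45 CPM, with a gap of 0.969 of the range of the sham libraries. Rgs10 in sham 3 had 2 counts where the other sham libraries had none, which gives a gap of 1.0 and lies below the floor of 3 counts. Such a gap arises by chance in about 1 in 20 groups, and 10 genes in 2 groups were examined.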

How the results depend on the processing

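None of the 10 genes was called under any of the alternatives run, and the lowest adjusted p of any of them was 0.396 (Rgs10, outside the filter). DESeq2 gave no adjusted p for Rgs1, Rgs4 and Rgs10. Over all genes, edgeR called 0, DESeq2 called 190 of 14462, edgeR without the sham libraries made from 200 pg called 9 and with amplification cycles as a covariate 5, and leaving out 1 library at a time gave 0 to 2. Of the 10 genes, those whose groups did not overlap numbered 2 without the low-input sham libraries (18.3% of all genes tested) and 0 to 1 when 1 library was left out, with Rgs3 the one without scopolamine 3 (6.61% of all genes) and Rgs14 the one without sham 1 (10.2%). The log2 fold changes of Rgs3 (-0.54 to -0.02), Rgs13 (-0.61 to -0.22) and Rgs14 (-0.70 to -0.33) kept their sign under every alternative. Rgs10 (2.38 to 5.76) kept its sign under those that gave it a value, which excludes the minimum of 10 counts in all libraries, but its estimates rest on 19 and 2 counts and are no measure of size. Leaving out 1 library gave -0.42 to -0.04 for Rgs2, -1.01 to -0.06 for Rgs12 and -0.59 to -0.14 for Rgs19. Without the low-input sham libraries the estimate became 2.74 for Rgs1, 0.030 for Rgs4 and 0.012 for Rgs22, and with amplification cycles as a covariate 2.74 for Rgs1, 0.011 for Rgs2, 0.030 for Rgs4 and 0.040 for Rgs22. Limma-voom gave 0.91 for Rgs1, 0.034 for Rgs4 and 1.35 for Rgs12, and the mouse ID letter as a covariate gave 0.033 for Rgs19. Leaving out single libraries turned the sign of Rgs1 (-2.89 to 2.81), Rgs4 (-0.48 to 0.45) and Rgs22 (-0.29 to 0.0049). The causes were not tested. Per length, the median transcript in place of the principal one raised Rgs22 to 260 and Rgs2 to 407 RPKM. The order of their means did not change, but the range of Rgs2 (234 to 599) then overlapped with that of Rgs13 and with that of Rgs22 (186 to 349). Rgs4 and Rgs10, with at most 15 counts in a library, are limited by depth, whereas Rgs13 and Rgs2 had at least 9024 counts in every library. No paired analysis was possible because the labels give no numbers that the groups share.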

Other observations

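Proteins outside the RGS family can carry a homologous domain. Of 15 such genes listed, all passed the filter, 4 with estimates above and 11 below 0, none called by edgeR. The most abundant per length of the principal transcript was Grk6, a receptor kinase, at 119 ± 11.8 CPM with scopolamine and 135 ± 19.3 CPM in sham (SD, n = 4 each). Grk2, another receptor kinase, was at 49.8 ± 8.64 and 67.4 ± 17.9 CPM (SD, n = 4 each). With the median coding transcript as length, Grk2 at 93.9 RPKM and Arhgef1 at 54.6 RPKM stood above Grk6 at 44.3 RPKM. Per length of the principal transcript, Grk6 at 58.7 RPKM (48.2 to 73.7) overlapped with Rgs22, and of the RGS genes only Rgs13 and Rgs2 exceeded it in every library. Of 13 effectors of G proteins, 8 passed the filter, 4 with estimates on each side of 0, and Plcb2, the phospholipase C of taste transduction, was at 377 ± 68.0 and 428 ± 71.4 CPM (SD, n = 4 each). Adcy5, an adenylyl cyclase that Gi subunits inhibit, was at 116 ± 26.2 and 124 ± 18.4 CPM (SD, n = 4 each). Of a list of other regulators of nucleotide state, 6 passed, 4 with estimates above and 2 below 0. Highest over both groups was Rap1gap, with 51.1 ± 11.4 and 73.0 ± 17.6 CPM (SD, n = 4 each, edgeR adjusted p = 0.812). Rap1gap is a GTPase activator for Rap1, which is not a G alpha subunit. The arrestin gene Arrb1 was at 48.1 ± 4.56 and 49.7 ± 14.1 CPM (SD, n = 4 each), and neither arrestin was called.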
